A study of Mus musculus with 8 samples.

Results

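The genes described here encode the interleukin-1 and interleukin-33 cytokine family and its receptors: the ligands Il33, Il1a, Il1b and Il18, the antagonist Il1rn, the decoy receptor Il1r2 and the receptor chains Il1r1, Il1rl2, Il1rap and Il18r1. They were taken by name, as rows of the deposited table whose platform annotation names 1 of these 10 symbols and no other, and where a gene had several rows the brightest was kept. Each of 9 members had 1 such row, out of 19752 genes named in the table. Il1r1 had none among the rows used and is not analysed here. Of the 9, Il1a and Il18r1 lay below the filter on low values, a mean log2 intensity of 6.35 that marks the 25th percentile of all rows, which left 7 members tested among 15007 genes. For each of these 7 the mean of either genotype alone also lay above the filter.

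The tissue was whole tibialis anterior, a muscle at the front of the lower leg, taken on day 8 after a metal probe cooled in liquid nitrogen had been applied for 8 seconds. Injured muscle of 4 ST2 flox samples (genotype label ST2 FL/Foxp3-Cre) was set against that of 4 ST2 WT samples (ST2 WT/Foxp3-Cre), all from male C57BL/6 mice, aged 10 weeks in the sample labels and 2 months in the series text. Both groups carry Foxp3-Cre, which acts in cells that express Foxp3, the transcription factor of regulatory T cells, so that the flox group is built to lose ST2 in these cells and keep it in the other cells of the muscle. The labels number the samples without saying that each came from its own animal, so the spread between samples may be technical, and no uninjured muscle is among the samples.

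Interleukin-33 is an alarm cytokine kept in the nucleus of stromal cells and released by damage, and ST2, with the shared chain encoded by Il1rap, is its receptor. In skeletal muscle, fibro-adipogenic progenitors are a known source of interleukin-33, which helps regulatory T cells to accumulate after injury. Interleukin-1 alpha and beta and interleukin-18 are sister cytokines that act through related receptors, and most of these receptors signal through the adaptor Myd88 to NF-kappaB. Myeloid cells are the main makers of interleukin-1 beta, and its activity is held in check by the antagonist Il1rn and the decoy Il1r2.

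The 250 bases before the transcription start are shown for Il1b, Il1rn and Il33, the ligands and the antagonist whose levels the results turn on. They come from RefSeq (GRCm38.p6), are written 5′ to 3′ on the gene's own strand, and carry in capitals the matches to the motifs searched. For Il1rn the first of 3 listed starts is used and for Il33 the second of 2, on the minus strand at chr2:129371140-129371389 for Il1b and on the plus strand at chr2:24336610-24336859 for Il1rn and chr19:29945540-29945789 for Il33.
Il1b: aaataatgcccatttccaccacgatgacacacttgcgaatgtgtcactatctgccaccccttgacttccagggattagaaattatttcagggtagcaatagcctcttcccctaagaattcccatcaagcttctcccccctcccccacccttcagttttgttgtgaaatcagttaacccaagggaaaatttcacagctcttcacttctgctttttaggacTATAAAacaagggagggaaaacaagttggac
Il1rn: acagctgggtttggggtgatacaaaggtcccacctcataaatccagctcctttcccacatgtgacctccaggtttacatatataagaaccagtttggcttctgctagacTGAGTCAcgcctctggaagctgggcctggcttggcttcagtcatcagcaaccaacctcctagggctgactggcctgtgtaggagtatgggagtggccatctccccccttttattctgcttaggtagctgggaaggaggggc
Il33: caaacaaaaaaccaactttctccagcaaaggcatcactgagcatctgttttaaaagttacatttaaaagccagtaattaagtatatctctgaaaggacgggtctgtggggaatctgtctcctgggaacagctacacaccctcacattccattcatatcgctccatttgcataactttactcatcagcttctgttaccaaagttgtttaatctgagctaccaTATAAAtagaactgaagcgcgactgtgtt
The TATA box motif TATAAA, searched on the gene's strand, began 31 bases before the start in Il1b and 29 bases before it in Il33, and it occurs in 7.59% of all 32851 listed promoters over the same 250 bases. The AP-1 motif TGANTCA, which reads the same on both strands, began 141 bases before the start in Il1rn, against 6.75% of all promoters. The other listed starts of Il1rn had no match to any motif searched. Over the 14 listed promoters of the 9 members, TATAAA was found for Il1a, Il1b and Il33 and TGANTCA for Il1a and Il1rn. The kappaB consensus (7.25% of all promoters) and the PU.1 core GAGGAAGT (2.44%), both searched on both strands, had no match in these 14. No match overlapped another, and a match is a description of the sequence only.

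Levels are log2 values of the authors' RMA intensities, 1 array per sample. Levels of different genes rest on different probes and are not set against each other. The arrays held 24922 rows and had median intensities of 184.9 to 189.2. As a check of the tissue, the 10 muscle fibre markers had group means of 11.92 (Mylpf) to 13.85 (Atp2a1). The floxed gene itself is not analysed here, so the arrays give no direct check of its loss. Foxp3 had a mean log2 level of 7.35 in flox and 7.36 in WT. The fourth flox array stood apart: without it, 3012 of the 15007 genes (20.1%) had an unadjusted limma p under 0.05 and 2 (0.0133%) an adjusted one, against 569 and 0 with all arrays.

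Among the family members no difference between the genotypes passed the test. Limma called 0 of the 7 tested members after Benjamini-Hochberg adjustment over all genes (adjusted p 0.912 to 0.999), where it called 0 of 15007 genes, or 0.0%. At an unadjusted p under 0.05 stood 1 of the 7, Il1rn, higher in flox, beside a background of 3.79% of all genes, 2.03% higher and 1.77% lower. The mean was higher in flox for 6 of the 7, where 48.8% of all genes had a higher mean, and the median difference of the 7 was 0.11 log2 against -0.00 over all genes. None of the 7 had groups that did not overlap, a property of 1.97% of all genes. Each difference below is the flox mean less the WT mean on the log2 scale, followed by its standard error (SE) and 95% interval from limma. The exact permutation test of a single gene over the 70 ways to choose 4 of 8 arrays is two-sided and cannot give a p below 0.0286.

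**Figure D1:**
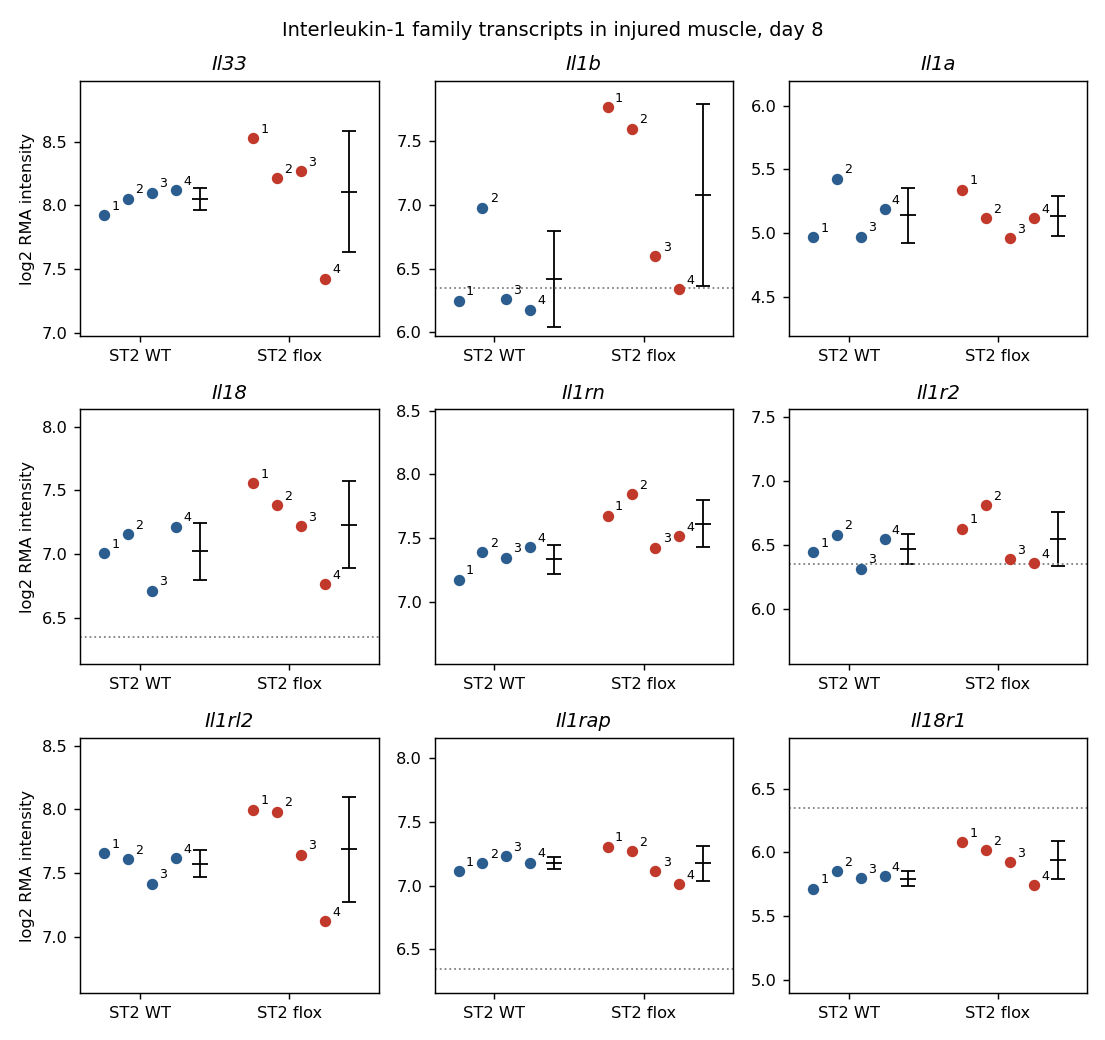
Log2 RMA intensity of 9 family members on each array (points, numbered as in the sample labels), with the group mean and SD at the right of each group and 4 arrays per group; each panel spans 2 log2 units, and the dotted line is the filter at 6.35. Il33 and Il1rl2 were lowest on flox array 4, and Il1b was highest on flox arrays 1 and 2.

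Il33, the ligand of ST2, had close means in both genotypes and a wider spread among the flox samples. Flox samples 1 to 4 had log2 levels of 8.52, 8.21, 8.27 and 7.42 and WT samples 1 to 4 had 7.92, 8.05, 8.10 and 8.12. Thus 3 flox arrays lay above every WT array and the remaining 1 below every WT array, so that the groups overlapped. The means were 8.11 ± 0.48 in flox and 8.05 ± 0.09 in WT (SD, n = 4 each). The difference was 0.06 (SE 0.19, 95% interval -0.36 to 0.48; limma adjusted p 0.966, exact permutation p = 0.83). Leaving out flox array 4 gave 0.29, and leaving out flox array 1 gave -0.08. The SD among flox arrays was 5.39 times that among WT arrays, a ratio larger than that of 96.2% of the genes tested.

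Il1b, the gene of interleukin-1 beta, had the widest range of the members. It was 7.77, 7.60, 6.60 and 6.34 in flox samples 1 to 4, against 6.25, 6.98, 6.26 and 6.18 on WT arrays 1 to 4. The measured range over the 8 arrays was 3.01-fold, larger than that of 99.7% of the genes tested. Flox array 4 and WT arrays 1, 3 and 4 lay below the filter of 6.35, so the low end of this range rests on dim values, whose distance from background is not known here. Il1b and Il33 were the 2 of 7 tested members with a range of 2-fold or more, against 1.51% of all genes. Flox arrays 1 and 2 were above all WT arrays, and flox arrays 3 and 4 below WT array 2. The means were 7.07 ± 0.71 in flox and 6.42 ± 0.38 in WT (SD, n = 4 each). The difference of 0.66, or 1.58-fold, had an interval from -0.03 to 1.35 (SE 0.31; limma adjusted p 0.912, exact permutation p = 0.171). Without flox array 1 it was 0.43.

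Il1a, the gene of interleukin-1 alpha, was dim in both groups. It lay between 4.96 and 5.34 on the flox arrays and between 4.97 and 5.43 on the WT arrays, below the filter on every array. In the fit without the filter the difference was -0.00 (SE 0.11, 95% interval -0.25 to 0.24). Il18, whose product drives interferon gamma production, was 7.56, 7.39, 7.22 and 6.76 on flox arrays 1 to 4 and 7.01, 7.16, 6.71 and 7.21 on the WT arrays. The first 3 flox arrays were above all WT arrays, the third (7.22) just above WT array 4 (7.21), and flox array 4 was above only WT array 3. The difference was 0.21 (SE 0.16, 95% interval -0.15 to 0.57; limma adjusted p 0.912, exact permutation p = 0.343). Leaving out flox array 4 gave 0.36, while leaving out flox array 1 gave 0.10 and WT array 3 gave 0.11.

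Il1rn, the antagonist that occupies the interleukin-1 receptor without signalling, came nearest to a separation of the genotypes. Its level was 7.68, 7.84, 7.42 and 7.51 on flox arrays 1 to 4 and 7.17, 7.39, 7.35 and 7.43 on the WT arrays. Flox arrays 1, 2 and 4 lay above every WT array, and flox array 3 lay just under WT array 4. The means were 7.61 ± 0.19 in flox and 7.33 ± 0.11 in WT (SD, n = 4 each). The difference was 0.28 (SE 0.10, 95% interval 0.07 to 0.49; limma p 0.0140 unadjusted and 0.912 adjusted, exact permutation p = 0.0571). It stayed between 0.20 and 0.34 without each array in turn.

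Il1r2, the decoy receptor found on neutrophils among other cells, was near the filter, at 6.63, 6.81, 6.39 and 6.36 on flox arrays 1 to 4 and 6.31 to 6.58 on the WT arrays. Flox arrays 1 and 2 were again the highest, and the other flox arrays fell within the WT range. The difference was 0.08 (SE 0.10, 95% interval -0.16 to 0.31; limma adjusted p 0.925, exact permutation p = 0.600). Leaving out flox array 2 turned it to -0.01, and leaving out flox array 4 gave 0.14.

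The receptor chains gave small differences. Il1rl2 encodes the receptor of the interleukin-36 cytokines, and its gene and that of Il18r1 lie on either side of the floxed gene in RefSeq's order of genes on chromosome 1. Its level was 8.00, 7.98, 7.64 and 7.12 on flox arrays 1 to 4 and 7.66, 7.61, 7.42 and 7.62 on the WT arrays. As for Il33, flox array 4 was below every WT array, and here flox arrays 1 and 2 were above all of them. The difference was 0.11 (SE 0.17, 95% interval -0.26 to 0.49; limma adjusted p 0.928, exact permutation p = 0.571), and leaving out flox array 4 gave 0.30 where leaving out flox array 1 or 2 gave 0.01.

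Il1rap, the accessory chain shared by the receptors for interleukin-1, interleukin-33 and interleukin-36, had the smallest range of the 9 members. It was 7.31, 7.27, 7.11 and 7.01 on flox arrays 1 to 4 and 7.12 to 7.23 on the WT arrays. The flox arrays spread to both sides of the WT range, and the difference was -0.00 (SE 0.07, 95% interval -0.16 to 0.16; limma adjusted p 0.999, exact permutation p = 0.971). Its sign turned with quantile normalization (0.01) and with cyclic loess (0.03). Il18r1, the ligand-binding chain of the interleukin-18 receptor, lay below the filter throughout, at 6.08, 6.02, 5.92 and 5.74 on the flox arrays and 5.71 to 5.85 on the WT arrays. Of the flox arrays 3 were above every WT array. In the fit without the filter, where 0.0% of 19752 genes were called after adjustment and 4.12% had an unadjusted p under 0.05, its difference was 0.15 (SE 0.08, 95% interval -0.03 to 0.32; limma adjusted p 0.90, exact permutation p = 0.114).

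**Figure D2:**
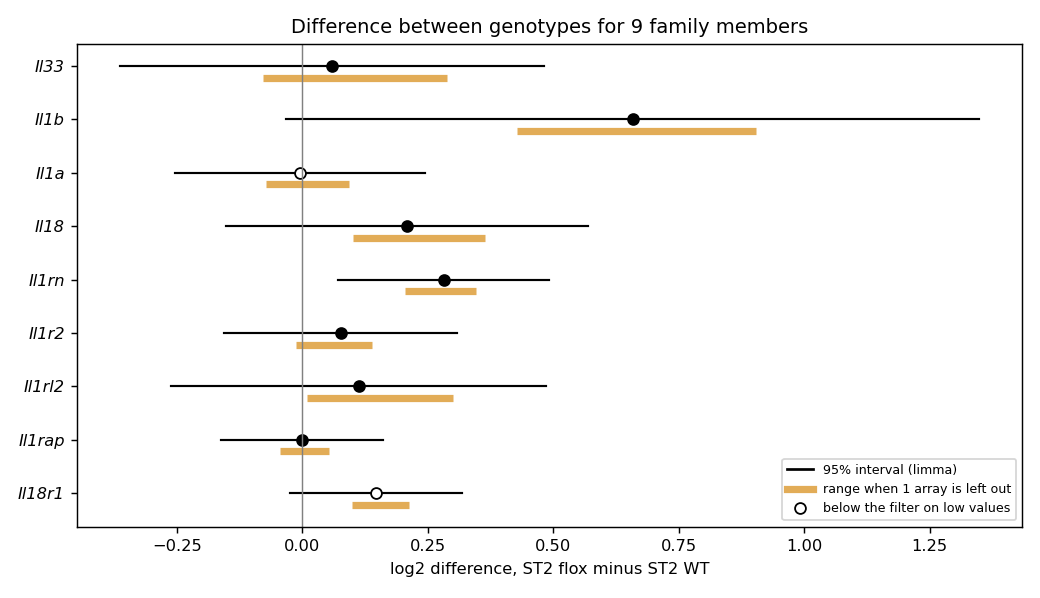
Log2 difference between ST2 flox and ST2 WT for 9 members (points), with limma's 95% interval (thin line) and the range of the difference when each of the 8 arrays is left out in turn (thick bar); open points are the 2 members below the filter. The interval of Il1rn, 0.07 to 0.49, is the one that lies wholly above 0 before adjustment, and the bar of Il33 runs from -0.08 to 0.29.

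Of the 9 members, 8 varied more among the flox samples than among the WT samples, and Il1a, below the filter, varied less (SD 0.16 in flox and 0.22 in WT). The SD was larger among flox than among WT arrays for 7 of 7 tested members, where 66.1% of all genes had a larger SD in flox, and the median ratio of the SDs was 1.89 against 1.38 over all genes. Of the 7 members, 5 were highest on flox array 1 and the other two on flox array 2, against 20.3% and 14.5% of all genes. The lowest array was flox array 4 for Il33, Il1rl2 and Il1rap, against 18.4% of all genes. Without flox array 4, the differences of Il33, Il1b, Il1rn, Il18 and Il1rl2 had an unadjusted limma p under 0.05, beside the 20.1% of all genes that did so, and 0 members passed after adjustment (adjusted p 0.152 to 0.665). The flox arrays numbered 1 and 2 had a mean Il1b level of 7.68 and those numbered 3 and 4 one of 6.47, while the corresponding WT means were 6.61 and 6.22. For Il33 these means were 8.37 and 7.85 in flox and 7.99 and 8.11 in WT, so the WT arrays did not follow the same order. This split by number was not tested for the members.

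Summed marker levels of several cell types were also highest on flox array 1 or 2. Each sum, here and in the next paragraph, covers all markers of a list with a row, also those below the filter. All 12 monocyte and macrophage markers with a row were above the filter and 11 had a higher mean in flox (Cd14 at 0.24, SE 0.09). Their summed intensity was lowest on flox array 4 (9005) and highest on flox array 1 (14743), with WT values of 10280 to 12512, and 8 of the 12 were lowest on flox array 4. All 11 fibro-adipogenic progenitor markers with a row were above the filter, 9 of them were lowest on flox array 4, and their sum ran from 25298 to 35522 in flox and from 29311 to 31768 in WT. Of 12 neutrophil markers only 5 passed the filter, and S100a8, Cxcr2, Ly6g, Mmp8, Retnlg, Ltf and Ngp did not. The neutrophil sum was 1132 to 1637 in flox and 1091 to 1502 in WT, but its genes differed in their order. Camp (6.29, 6.41, 6.63 and 6.84 on flox arrays 1 to 4) and Cd177 (7.29, 7.38, 7.49 and 7.69) were lowest on flox array 1 and highest on flox array 4. Of 10 T cell markers 9 had a row and 8 passed the filter, and the 9 summed to 1064 to 1351 in flox and 1035 to 1077 in WT. Cd3g (0.85, SE 0.28) and Cd4 (0.20, SE 0.08) had an unadjusted limma p under 0.05 and adjusted ones of 0.912. Of the rest that passed, Cd2, Cd5 and Cd8a differed by 0.24, 0.14 and 0.13, Cd3e and Cd28 by 0.06 each and Cd247 by -0.05. Cd3g was 7.63, 7.92, 7.36 and 6.27 on flox arrays 1 to 4 and 6.32 to 6.60 on the WT arrays, so the sums rest in part on this 1 gene. Without flox array 4 Cd3g differed by 1.19 (limma adjusted p 0.027) and was 1 of the 2 genes called in that fit. All 11 mast cell and eosinophil markers, of which 7 were above the filter, summed to 1289 to 1897 in flox and 1524 to 1679 in WT. RMA gives no value of 0, so no marker was at 0. The part of these cell types in the levels of Il33, Il1b, Il18 and Il1rl2 was not tested, and in whole muscle fewer cells of a type and less RNA per cell cannot be told apart.

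Endothelial markers, all 8 above the filter, summed to 8692, 8632, 8006 and 7773 on flox arrays 1 to 4 and to between 7529 and 8108 in WT, so their 2 highest sums were also on flox arrays 1 and 2. Of the 8, 7 had a higher mean in flox and 3 were lowest on flox array 4, and their part in the members' levels was not tested. The 10 muscle fibre markers summed to between 99134 and 108087 over the 8 arrays, with the lowest sum on flox array 2. Markers of keratinocytes, the main cells of the epidermis, summed to 4440 on WT array 4 and to between 1764 and 2115 on the other arrays. On that WT array Il33 was 8.12, Il1rn 7.43 and Il18 7.21, the highest WT value of each. The next WT values were close, at 8.10, 7.39 and 7.16. No other member had its highest WT value there, and Il1b had its lowest of all 8 arrays (6.18). Without that array the difference was 0.08 for Il33, 0.31 for Il1rn and 0.27 for Il18. Il33, Il1rn and Il18 are also expressed in skin, and the part of skin in their WT levels was not tested.

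**Figure D3:**
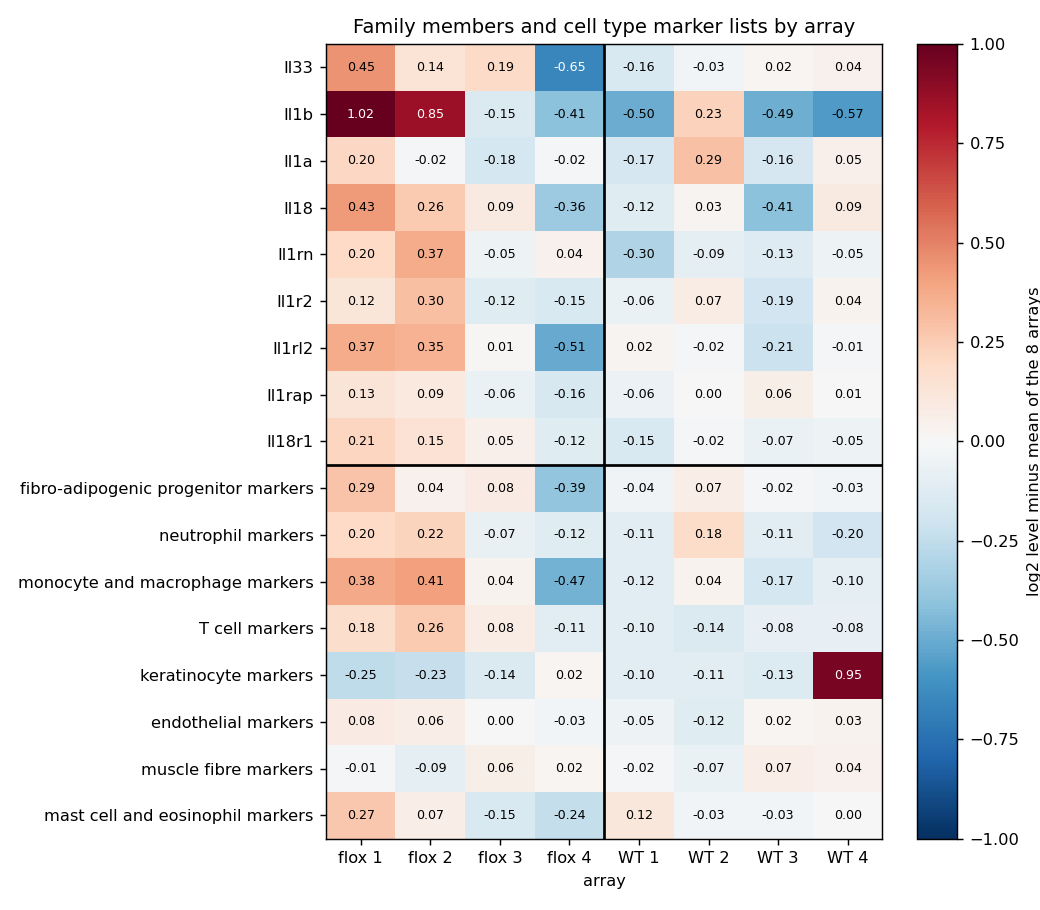
Log2 level minus the mean of the 8 arrays for 9 members (upper rows, 1 gene each) and for 8 lists of cell type markers (lower rows, mean over the list's genes above the filter), by array. On flox array 4 the values were -0.65 for Il33, -0.51 for Il1rl2, -0.39 for fibro-adipogenic progenitor markers and -0.47 for monocyte and macrophage markers.

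The genes whose centred levels lay closest to 4 of the members over the 8 arrays were found by the root mean square (RMS) of the difference. For Il33 they were C1qa, a chain of complement C1q made by macrophages (RMS 0.08), Abca6, a lipid transporter gene (0.09), and 1700019D03Rik (0.09), where the median gene lay at 0.31. C1qa was 9.91, 9.75, 9.72 and 9.003 in flox samples 1 to 4 and 9.36 to 9.47 on the WT arrays. Thus it too was lower on flox array 4 than on any WT array and higher than all WT arrays on the other flox arrays. For Il1b the closest were Clec4d and Clec4n, C-type lectin receptors of myeloid cells (0.13 and 0.19), and Timp1, an inhibitor of matrix metalloproteinases (0.16), with a median gene at 0.61. Clec4d was 8.15, 8.31, 7.09 and 6.98 in flox samples 1 to 4, and 7.72 on WT array 2 against 6.86 to 7.04 on the other WT arrays. As for Il1b, its 3 highest arrays were flox arrays 1 and 2 and WT array 2.

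For Il1rl2 the closest were Csf1r, the receptor for macrophage colony-stimulating factor (0.06), Hacd4, an enzyme of fatty acid elongation (0.05), and Pde8a, a cyclic AMP phosphodiesterase (0.06), with a median gene at 0.28. Csf1r was 10.37, 10.23, 9.95 and 9.40 on flox arrays 1 to 4 and 9.79 to 10.02 on the WT arrays. For Il18 they were Tmem45a (0.08), P2rx4, an ATP-gated ion channel (0.08), and Cul4b, a scaffold of a ubiquitin ligase (0.09), with a median gene at 0.29. These points share 8 arrays, so likeness is a description of the same samples.

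**Figure D4:**
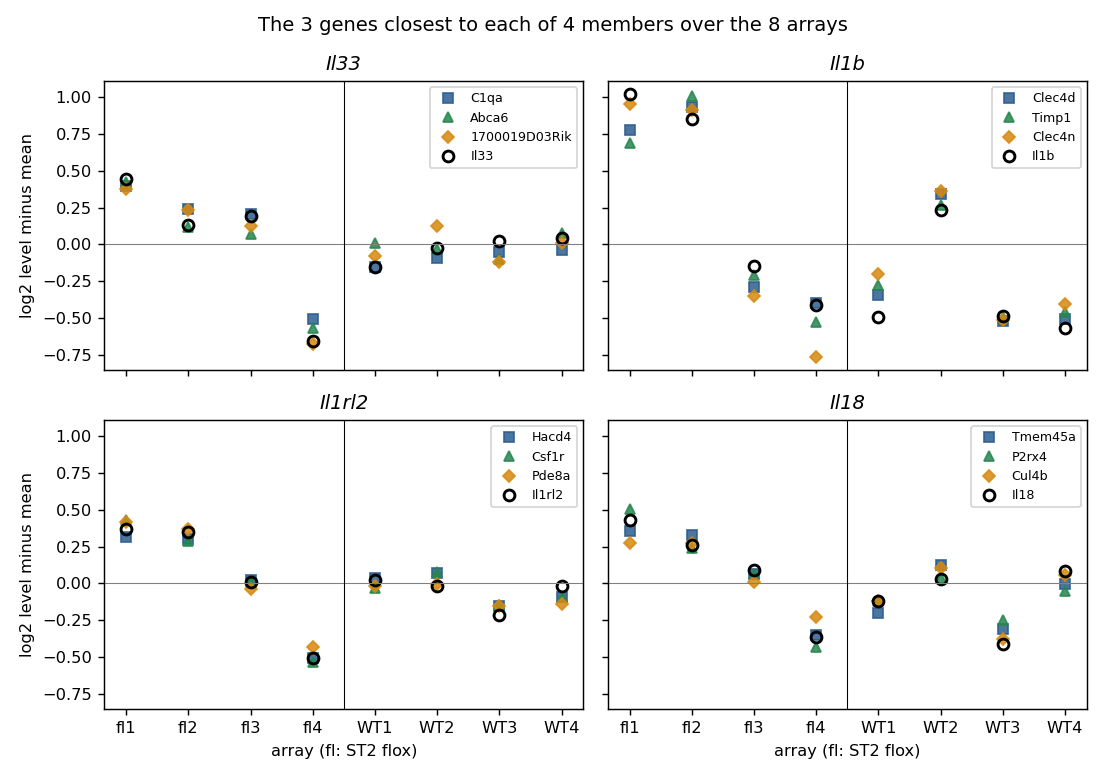
Log2 level minus the mean of the 8 arrays for Il33, Il1b, Il1rl2 and Il18 (open circles) and the 3 genes closest to each (filled symbols), by array, with the ST2 flox arrays left of the vertical line. Il33 and C1qa lay within an RMS of 0.08 of each other, and Il1rl2 and Csf1r within 0.06.

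The wider pathway was described with 6 lists, and limma called 0 genes of any of them after adjustment. The background for counts at an unadjusted limma p under 0.05 was 569 of 15007 genes (3.79%) with all arrays. It was 3012 genes (20.1%) without flox array 4 and 245 to 576 without any other single array. Quantile normalization gave 620 such genes and cyclic loess 644. Of the 10 other ligands, receptors and decoys of the family, 4 passed the filter, with a median difference of -0.09, and 0 had an unadjusted p under 0.05. Sigirr, a receptor that restrains signalling in the family, differed by -0.08 (SE 0.06) and Il1f6, the gene of interleukin-36 alpha, by -0.10 (SE 0.09). Il1f6 was highest on WT array 4, at 6.68, and differed by -0.04 without it and by -0.17 without WT array 3. The median of these 4 genes was -0.03 without WT array 4, -0.06 without flox array 1 and -0.06 and -0.05 with quantile normalization and cyclic loess. Il18bp, the soluble trap of interleukin-18, was tested and had a mean of 8.40 in both groups.

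Of the 29 signalling adaptors and brakes tested, 22 had a higher mean in flox, with a median difference of 0.06, and 2 had an unadjusted limma p under 0.05, both higher. Leaving out flox array 4 raised that count to 5, beside a rise from 3.79% to 20.1% of all genes. Leaving out flox array 1, flox array 2 or WT array 1 lowered the count to 1. The median was 0.09, 0.03 and 0.02 without flox array 4, 1 and 2 in turn, and 0.03 with quantile normalization. Relb, a subunit of NF-kappaB, was 7.62, 7.50, 7.46 and 7.46 on flox arrays 1 to 4 and 7.35, 7.34, 7.24 and 7.36 on the WT arrays. All 4 flox arrays were above all 4 WT arrays, with a difference of 0.19 (SE 0.06; limma adjusted p 0.912, exact permutation p = 0.0286, the smallest this test can give). Groups that did not overlap were found for 2 of the 29 genes, Relb and Ikbkb (difference 0.08, SE 0.05), and for 1.97% of all genes. Nfkbie, an inhibitor of NF-kappaB, was 7.50 to 7.63 on the flox arrays and 7.35 to 7.53 on the WT arrays, with a difference of 0.15 (SE 0.06; limma adjusted p 0.912).

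Of 22 genes of the inflammasome and of the processing of interleukin-1 beta, interleukin-18 and interleukin-33, 16 were tested. Casp1, the protease that matures interleukin-1 beta and interleukin-18, and the sensor Nlrp3 lay below the filter. The median difference was 0.04, with 9 of 16 higher in flox. With all arrays, 1 gene had an unadjusted limma p under 0.05, Elane, neutrophil elastase, which was 6.27 to 6.51 on the flox arrays and 6.50 to 6.64 on the WT arrays (difference -0.17, SE 0.07; adjusted p 0.912). Leaving out 1 array gave 6 such genes for flox array 4, 4 for flox array 1, 2 for WT array 2 and 0 for flox array 2, flox array 3 or WT array 1, and there were 0 with quantile normalization or cyclic loess. Omission of flox array 2 gave a median of 0.01, and that of flox array 1 or WT array 3 one of 0.07.

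The interleukin-1 response list had 15 tested genes, of which 12 were higher on average in flox, with a median difference of 0.12 and differences from -0.19 to 0.65. Omission of flox array 1 gave a median of 0.06, that of flox array 4 one of 0.23 and that of WT array 2 one of 0.21. With all arrays 1 gene, Ptgs2, had an unadjusted limma p under 0.05, beside 3.79% of all genes. When flox array 4 was omitted 5 did, beside 20.1% of all genes. The count was 2 when flox array 3 was omitted, and 0 when flox array 1 or 2 or WT array 1, 3 or 4 was. Ptgs2, the inducible cyclooxygenase, was 7.63, 7.78, 7.26 and 7.07 on flox arrays 1 to 4 and 6.97 to 7.23 on the WT arrays, so flox array 4 fell within the WT range. Its difference was 0.33 (SE 0.14; limma adjusted p 0.912, exact permutation p = 0.143), and 0.22 without flox array 2. The mean of the list over its genes was 0.47 and 0.31 above the mean of all arrays on flox arrays 1 and 2. It was 0.25 above it on WT array 2 and below it on the other arrays. Il1b was highest on the same 3 arrays, but the genes of the list differed in their order. On flox array 1, 6 of the 15 genes were highest, while Cxcl1 (6.88) and Ccl20 (6.61) were lowest there. Only 1 of the 15 was highest on WT array 2, Mmp13, at 10.81 against 7.40 to 9.52 on the other WT arrays. The list mean thus rests in part on genes of wide range. On these lists, chosen with earlier results of the data known, the counts are descriptions.

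The interleukin-33 and type 2 response list had 14 tested genes, of which 4 were higher on average in flox, with a median difference of -0.04, and 0 had an unadjusted p under 0.05. The median changed sign to 0.01 without flox array 1, and was -0.02 without flox array 3 or WT array 1 and -0.01 and -0.00 with quantile normalization and cyclic loess. The count was 2 without WT array 2 and with either normalization, and 1 without flox array 1, 3 or 4. Over all genes it was 566 without WT array 2, 620 and 644 with the 2 normalizations, and 3012 without flox array 4. Arg1, the arginase of repair macrophages, was 6.50, 7.13, 6.25 and 6.45 on flox arrays 1 to 4 and 6.12 to 6.43 on the WT arrays, with a difference of 0.35 (SE 0.16; limma adjusted p 0.912) that fell to 0.16 without flox array 2. Its WT mean of 6.24 lay below the filter of 6.35, as did WT arrays 1, 3 and 4 and flox array 3. Arg1 thus passed the filter through its flox mean of 6.58, and its difference rests in part on dim values. Batf, a transcription factor of activated T cells, had a difference of 0.13 (SE 0.06), or 0.08 when flox array 2 was left out. The interleukin genes Il5, Il9 and Il10 and the regulator Gata3 were below the filter, and Areg, the growth factor that muscle regulatory T cells release, had no row of its own among the rows used.

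The interleukin-18 and type 1 response list had 8 tested genes, of which 6 were higher on average in flox, with a median difference of 0.07, and 0 had an unadjusted p under 0.05. Without flox array 4 the median was 0.01 and 2 genes had such a p, beside 20.1% of all genes. The median was 0.04 and 0.03 without WT arrays 1 and 3 in turn. With quantile normalization or cyclic loess 1 gene had such a p. Stat4, which transmits interleukin-12 signals, was 7.04, 7.11, 6.55 and 5.69 on flox arrays 1 to 4 and 6.04 to 6.32 on the WT arrays. It lay above the WT range on 3 flox arrays and below it on flox array 4, and its difference was 0.45 (SE 0.26; limma adjusted p 0.912). Every WT array and flox array 4 lay below the filter of 6.35, which Stat4 passed through its other flox arrays. Its means were 6.60 in flox and 6.15 in WT, so the difference rests in part on dim values. Leaving out flox array 4 gave 0.75, and leaving out flox array 2 gave 0.28. The chemokine gene Cxcl9, a target of interferon gamma, had a difference of 0.37 (SE 0.25), which became 0.59 when flox array 4 was left out and 0.16 when flox array 2 was, and Ifng itself had means of 6.76 and 6.75.

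**Figure D5:**
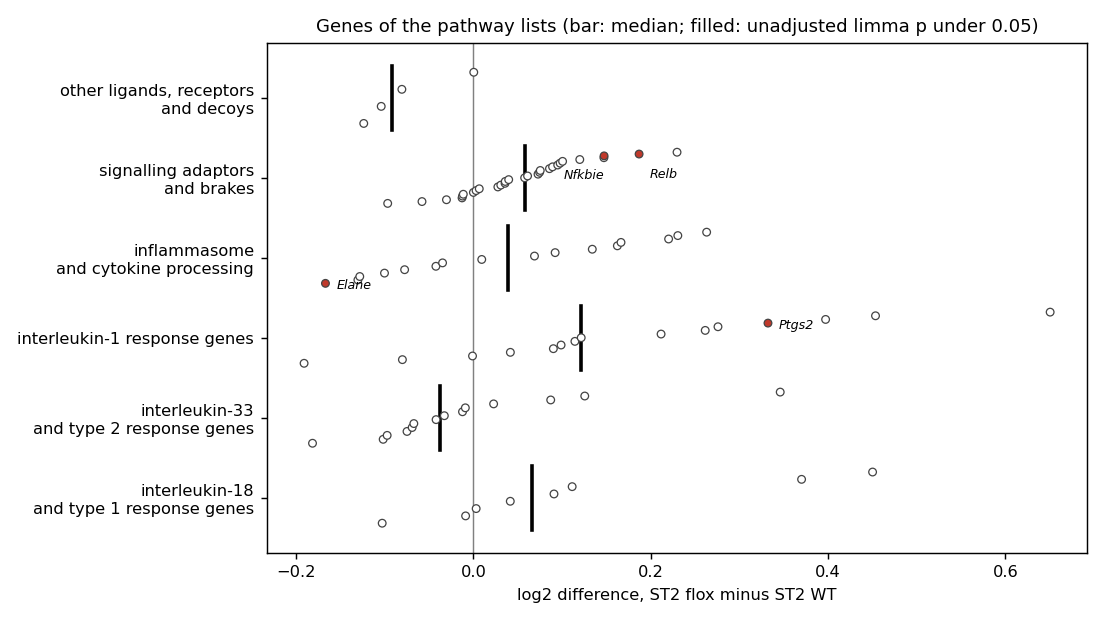
Log2 difference between ST2 flox and ST2 WT for each gene above the filter in 6 pathway lists (points, spread vertically by rank within a list), with the list's median as a bar and filled points for an unadjusted limma p under 0.05. Relb, Nfkbie and Ptgs2 are filled on the higher side and Elane on the lower side, and the medians run from -0.09 to 0.12.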

How the data were processed

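RNA of 8 whole muscle samples, 4 per genotype, was measured on Affymetrix arrays of the Mouse Gene 1.0 ST design. The authors deposited a table of intensity values per probeset on a linear scale, made with RMA in Affymetrix Power Tools per the submitters' processing notes. RMA corrects background, aligns the arrays and summarises probes. For versions, genome build and row filters: not given in the sources used here, and no detection calls were used. Log2 was taken without a pseudocount. Of 24922 rows, 21425 had 1 gene symbol in the platform annotation, 1399 several and 2098 none. The 9 members with a row and their 14 promoters were matched to RefSeq by symbol. Rows with a mean below the 25th percentile (log2 6.35) were left out and the brightest row per gene kept, which gave 15007 genes.

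The genotypes were set against each other in limma 3.58.1 (R 4.3.3) with group as the only term, with Benjamini-Hochberg adjustment at 0.05, and tested on simulated data. Genes were named by rule: all members; per pathway list up to 4 genes with an unadjusted p under 0.05, or else the 2 with the smallest p; and for Il33 and the 3 other members of widest range the 3 closest genes. Il18bp, Ifng, Foxp3, Ikbkb, Mmp13, Cxcl1, Ccl20, marker genes and genes below the filter were named after their values were seen. The members and lists were chosen with earlier results of these data known. The number of arrays limits the precision. Alternatives were other normalizations, filters, row rules and priors, a block on sample number, and leaving out each array.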

Additional observations from a re-analysis of the deposited data

Results flagged for a closer look

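In the WT group, Il1b on array 2 stood apart from the other WT arrays, at a log2 level of 6.98 against 6.18 to 6.26. The gap to the nearest WT array was 0.897 of the group's range. The groups examined numbered 18 (9 members in 2 genotypes) and 1 was flagged, where chance flags about 1 group in 20. Without WT array 2 the difference of Il1b was 0.85 in place of 0.66 (limma adjusted p 0.86).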

How the results depend on the processing

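No member passed the adjusted threshold under any alternative run. All 8 fits without 1 array called 0 genes, except 2 without flox array 4. Without each array in turn the difference ran from -0.079 to 0.29 for Il33, -0.073 to 0.092 for Il1a, -0.012 to 0.14 for Il1r2 and -0.044 to 0.054 for Il1rap, which covers both signs. Quantile normalization and cyclic loess turned the difference of Il1a to 0.041 and 0.038, and that of Il1rap to 0.012 and 0.028; the cause was not tested. Il1b, Il1rn, Il18, Il1rl2 and Il18r1 kept a higher mean in flox in each fit that tested them. With the filter at the 50th percentile Il33 and Il1rl2 remained among the tested members; the median difference was 0.00031 for the 1 other ligand or receptor left and 0.24 for the 2 type 1 response genes left, since fewer genes were tested. Deviations of same-numbered samples correlated at 0.01 to 0.36 across genes, and not every sample was closest to its own number, so the numbers were not taken to pair the samples. With the replicate block 0 genes were called, 694 had an unadjusted p under 0.05 against 569, and Il33 differed by 0.06 (limma adjusted p 0.955). The unadjusted limma p of Il1b went from 0.0600 to 0.0115 with the block, and that of Il1rn from 0.0140 to 0.0160. Arg1 of the type 2 list went from 0.0560 to 0.0076. The adjusted p of each of these genes was 0.871 with the block. Signal near background limits Il1a, Il18r1, Il1r2 and Il1b, and Stat4 and Arg1 among the genes of the pathway lists.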
